A study of Mus musculus with 12 samples.

Results

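The genes described here are those that give the medium spiny neuron its identity and carry its cyclic AMP (cAMP) signal. The list holds 39 genes: transcription factors of striatal projection neurons, and enzymes and regulators of the cAMP pathway. Apart from the orphan receptor gene Gpr6, it holds no neuropeptides or cell surface receptors. A gene was read through every probe set annotated to its symbol alone. That gave 62 probe sets for 32 of the 39 genes, out of 22690 probe sets on the array, which name 12393 genes. Gpr6, Gng7, Gnal, Adcy5, Adcy1, Itpr1 and Prkar2b had no such probe set and were not analysed here.

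The samples are striatum with nucleus accumbens, taken from female littermate mice aged 10 to 15 weeks, 1 hour after an intraperitoneal injection. For all of them 5 days of handling are recorded. The series asks what the serum response factor SRF, a transcription factor, contributes to activity-driven transcription. The titles give 4 groups of 3 arrays each: control animals given saline, control animals given cocaine at 25 mg/kg, mutant animals given saline and mutant animals given cocaine at the same dose. Each array holds 1 sample, called a biological replicate in its title. The labels say neither which part of Srf was changed nor in which cells, and give no strain or allele for the controls. The treatment text names cocaine for all samples, and the description field gives another group than the title for 10 of the 12 arrays, so the groups rest on the titles.

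Medium spiny neurons are the GABAergic output cells of the striatum and make up most of its neurons. Dopamine reaches them through receptors that raise or lower cAMP. Adenylyl cyclases make cAMP, phosphodiesterases break it down, and the cAMP-dependent protein kinase PKA carries the signal to targets such as the phosphatase inhibitor DARPP-32, the product of Ppp1r1b. A set of homeobox, forkhead and zinc finger factors, together with retinoid receptors, establishes these cells in the embryo and stays on in many of them in the adult.

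Srf, the targeted gene, checks the genotype in the titles but not the treatment: its tested probe set read 6.97 to 7.21 in the 6 control arrays and 5.01 to 5.49 in the 6 mutant arrays (log2 signal). Array medians lay between 3.75 and 3.78, and correlations between arrays of a group were 0.986 to 0.993. Testing was limited to probe sets with a log2 signal above 4 on 3 or more of the 12 arrays. Of 4 striatal projection neuron markers outside the list that could be tested, the enkephalin gene Penk read 11.62 to 11.99, the substance P gene Tac1 10.70 to 11.24 and the dopamine receptor gene Drd2 8.13 to 8.59, so the tissue carried transcripts of such neurons. Penk (0.19, adjusted p = 0.0431) and Tac1 (0.35, adjusted p = 0.00102) were themselves called higher in mutants by limma and Rgs9, the fourth, lower (-0.33, adjusted p = 0.0340). Markers of 9 other cell types gave 27 tested genes of 57 listed, each counted by its brightest probe set. The thalamic, cholinergic and choroid plexus lists had 1 tested gene each, the endothelial list 2 and the cortical list 0. For these types the check could show little. By limma, 0 of these 27 were called between genotypes and 0 for cocaine over both genotypes, beside 9.47% and 2.31% of all tested probe sets. At an unadjusted p under 0.05 there were 3 and 1, beside 23.4% and 11.5%. The summed levels of the 8 of these lists with a tested gene overlapped between the genotypes and between the treatments. The summed level of the 4 projection neuron markers overlapped between the treatments but not between the genotypes. It was 12.60 to 12.67 in controls and 12.73 to 12.87 in mutants (log2), and the cause was not tested. Gfap, 1 of 7 tested astrocyte markers, was called lower with cocaine in mutants (-1.02, adjusted p = 0.0303), where mutants read 4.71 to 5.58 under saline and 3.58 to 4.26 under cocaine. Saline-treated controls read 4.23 to 4.30, below all saline-treated mutants, and the genotype difference of Gfap was 0.80 after saline (adjusted p = 0.0760) and 0.39 over both treatments (adjusted p = 0.144), neither called. The part of Gfap in the results was not tested. All 4 cortical glutamatergic neuron markers on the array stayed at or under 3.63. Ttr, a choroid plexus gene, read 9.61 on replicate 3 of the cocaine-treated controls, 2.83 to 3.13 on the other control arrays and 3.05 to 5.90 on mutant arrays. Its part in the results was not tested, and counts without that array are given below. In tissue samples such as these, fewer cells of a type and less RNA per cell cannot be told apart.

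Promoters are shown for 4 transcription factor genes that read higher in mutants, because SRF acts through a DNA element called the CArG box and cAMP through the CRE. All are RefSeq windows of build GRCm38.p6, from 250 bases before to 50 bases after an annotated start, printed on the strand of the gene. Srf is added as an example of what a CArG box looks like: the stretch chr17:46556215-46556244 (minus strand) of its own promoter holds 2 boxes, in capitals, and the first begins 82 bases before the start.
Srf: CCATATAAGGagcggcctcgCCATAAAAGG
Rxrg has 2 annotated starts, at windows chr1:167598112-167598411 and chr1:167618015-167618314 (plus strand). Six3 lies at chr17:85620584-85620883 (plus strand), Dlx2 at chr2:71546705-71547004 (minus strand) and Isl1 at chr13:116309639-116309938 (minus strand). Capitals mark the CRE half-site, TGACG or its reverse complement CGTCA.
Rxrg upstream start: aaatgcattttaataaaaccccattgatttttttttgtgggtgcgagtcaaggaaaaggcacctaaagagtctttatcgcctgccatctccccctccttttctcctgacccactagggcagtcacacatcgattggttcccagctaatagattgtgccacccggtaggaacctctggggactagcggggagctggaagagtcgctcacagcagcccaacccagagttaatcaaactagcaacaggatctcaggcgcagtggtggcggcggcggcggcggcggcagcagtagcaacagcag
Rxrg downstream start: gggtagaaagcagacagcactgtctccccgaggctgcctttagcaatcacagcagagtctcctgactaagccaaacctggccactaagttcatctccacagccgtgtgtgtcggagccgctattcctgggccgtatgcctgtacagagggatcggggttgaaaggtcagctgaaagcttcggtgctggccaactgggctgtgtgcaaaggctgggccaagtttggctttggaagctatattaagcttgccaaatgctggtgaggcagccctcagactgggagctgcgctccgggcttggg
Six3: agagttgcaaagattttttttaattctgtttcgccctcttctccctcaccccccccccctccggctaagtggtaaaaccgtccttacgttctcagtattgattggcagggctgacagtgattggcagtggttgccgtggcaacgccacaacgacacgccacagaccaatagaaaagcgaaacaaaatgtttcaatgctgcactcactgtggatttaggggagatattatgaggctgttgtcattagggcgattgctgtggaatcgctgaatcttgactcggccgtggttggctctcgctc
Dlx2: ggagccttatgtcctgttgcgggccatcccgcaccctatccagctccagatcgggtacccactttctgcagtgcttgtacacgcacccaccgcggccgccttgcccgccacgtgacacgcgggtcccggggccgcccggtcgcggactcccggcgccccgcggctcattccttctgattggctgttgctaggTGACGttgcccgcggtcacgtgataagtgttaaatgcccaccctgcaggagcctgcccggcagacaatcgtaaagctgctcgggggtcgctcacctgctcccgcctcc
Isl1: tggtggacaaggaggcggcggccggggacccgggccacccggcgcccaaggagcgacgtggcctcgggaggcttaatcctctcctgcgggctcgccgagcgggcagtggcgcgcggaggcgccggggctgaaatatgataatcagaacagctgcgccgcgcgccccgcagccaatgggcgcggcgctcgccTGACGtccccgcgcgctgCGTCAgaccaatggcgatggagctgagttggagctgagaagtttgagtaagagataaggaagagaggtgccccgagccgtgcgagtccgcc

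In these windows the half-site begins 58 bases before the start of Dlx2, and 59 and 41 bases before that of Isl1, while the Rxrg and Six3 windows hold none. Entries existed for 32 of the 39 genes, with 66 windows in all; Ppp1r1b, Ppp1r1a, Gnal, Foxp2, Itpr1, Dlx5 and Dlx6 had none. Searched on both strands, the CArG box matched 0 of the 66 windows, against 1.63% of all 32851 windows. The full CRE, TGACGTCA, matched 1 window, that of Gpr6, or 1.52%, against 1.79% of all windows. The half-site TGACG, which the full CRE contains in both orientations, matched 14 windows, or 21.2%, against 20.8% of all windows. Median GC content was 56.9% in the windows of these genes and 52.7% in all windows. A match is a run of letters and not a bound site, and its absence concerns this window alone.

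Between genotypes, genes of the list moved in both directions. Rxrg, Six3, Sfxn1, Dlx2, Pde1b and Isl1 were higher in mutants, and Foxp2, Ppp1r1a, Rarb and Strn4 were lower, each by its brightest probe set over both treatments. The changes ran from 1.85-fold higher for Rxrg to 1.34-fold lower for Foxp2. Rxrg, Six3 and Pde1b kept these calls under each alternative run. When dim probe sets were kept in the test, those of Foxp2, Ppp1r1a, Rarb and Strn4, all the lower ones, were lost. So were those of Dlx2 and of the brightest Sfxn1 probe set. Ppp1r1b (adjusted p = 0.0511), Bcl11b, Foxp1 and Meis2 did not pass the test by any tested probe set.

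Of the 39 genes, 31 had a tested probe set, 58 probe sets in all. The kinase gene Prkcd stayed under the filter, with 1 of 12 arrays above 4 and values of 2.82 to 4.03. Over both treatments, limma called 15 of the 58 probe sets (25.9%) between mutant and control, 9 higher and 6 lower; over all 11102 tested probe sets the share called was 9.47%, with 4.41% higher and 5.05% lower. At an unadjusted p under 0.05 it was 27 of the 58 (46.6%), against 23.4%. The genes were chosen with earlier results of these data known, so a larger share among them is a description and not a test. The median of the log2 difference was 0.05 for the 58 and -0.01 for all tested probe sets, and the median of its size was 0.17 and 0.09. The 15 stand for 14 genes, 8 higher and 6 lower. The count was 9 without replicate 2 of the cocaine-treated controls and also 9 without replicate 3 of the saline-treated controls, 11 without replicate 3 of the cocaine-treated controls, and 8 (7 higher, 1 lower) when dim probe sets were kept. The 6 lower calls had an adjusted p of 0.0132 to 0.0439. All p-values measure the spread between these samples.

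**Figure D1:**
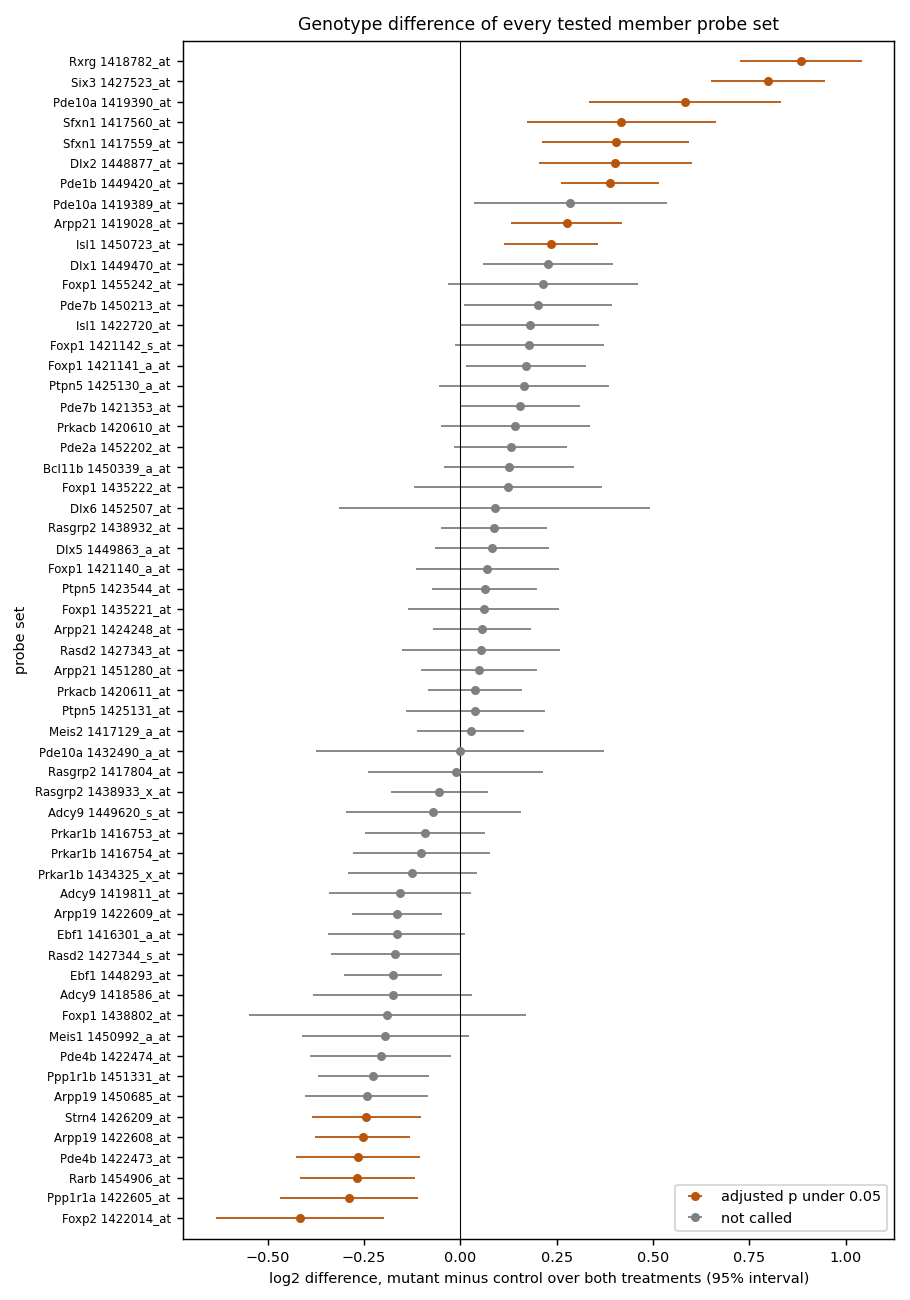
Log2 difference between mutant and control over both treatments (x axis, point, with limma's 95% interval) for each of the 58 tested probe sets (y axis, gene and probe set); orange marks an adjusted p under 0.05. Rxrg at 0.88 and Six3 at 0.80 stand at the top, and Foxp2 at -0.42 at the bottom.

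The transcription factors held the widest changes. Rxrg encodes the retinoid X receptor gamma, a nuclear receptor that pairs with retinoic acid receptors. Its log2 signal (probe set 1418782_at) was 8.12, 7.81 and 7.76 in saline-treated controls, 7.86, 7.84 and 8.01 in cocaine-treated controls, 8.82, 8.71 and 8.96 in saline-treated mutants, and 8.75, 8.68 and 8.78 in cocaine-treated mutants. Every mutant array lay above every control array, and the difference was 0.88 (1.85-fold, SE 0.0731, adjusted p = 7.47e-06). It was 0.93 after saline and 0.84 after cocaine, called in each and under each of the alternatives run. Rarb encodes the retinoic acid receptor beta, a partner of retinoid X receptors. Its probe set 1454906_at read 8.59, 8.64 and 8.74, then 8.58, 8.61 and 8.53 in controls after saline and cocaine, and 8.19, 8.33 and 8.60, then 8.27, 8.29 and 8.39 in mutants. The change went the other way, by -0.27 on the log2 scale (SE 0.0692, adjusted p = 0.0292), with replicate 3 of the saline-treated mutants inside the control range. This call was lost in 7 of the 12 fits that left out 1 array, at adjusted p of 0.0574 to 0.0688.

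Six3, a homeobox factor needed for the striatopallidal class of medium spiny neurons, was the other strong riser. Its probe set 1427523_at read 7.32, 7.24 and 7.24 in saline-treated controls and 6.95, 7.11 and 7.17 in cocaine-treated controls. In saline-treated mutants it stood at 8.06, 7.88 and 7.93, and in those given cocaine at 8.11, 8.04 and 7.79. Genotypes did not overlap, and Six3 was 1.74-fold higher in mutants (log2 change 0.80, SE 0.0684, adjusted p = 1.05e-05), called after each treatment and under each alternative run. Both its other probe sets lay under the filter on all 12 arrays, at 2.47 to 2.74, near the floor of the array, so the rise rests on 1 probe set.

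Among the Dlx homeobox factors, which direct the birth of GABAergic striatal neurons, Dlx2 passed the test. Its probe set 1448877_at read 5.12, 4.87 and 4.93 in saline-treated controls, 4.85, 5.00 and 4.91 in cocaine-treated controls, 5.65, 5.19 and 5.36 in saline-treated mutants, and 5.17, 5.17 and 5.55 in cocaine-treated mutants. No mutant array fell within the control range, and the change was 1.32-fold (log2 change 0.40, SE 0.0913, adjusted p = 0.0144), lost when dim probe sets were kept (adjusted p = 0.0530). Dlx1, its neighbour on the chromosome, differed by 0.23 without a call (95% interval 0.06 to 0.40, adjusted p = 0.0880). Dlx5 differed by 0.08 and Dlx6 by 0.09. These 3 Dlx genes were dim, between 3.85 and 5.69 on all arrays.

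Isl1, a LIM homeobox factor of striatonigral and cholinergic neurons, read on probe set 1450723_at 6.12, 6.18 and 6.19 in saline-treated controls and 6.34, 6.33 and 6.21 after cocaine. Values were 6.22, 6.31 and 6.42 in saline-treated mutants, and 6.68, 6.51 and 6.63 in those given cocaine. The cocaine-treated mutants stood above all other arrays, while saline-treated mutants overlapped cocaine-treated controls. The genotype difference was 0.24 (1.18-fold, SE 0.0568, adjusted p = 0.0201), lost without replicate 3 of the cocaine-treated controls (adjusted p = 0.0546) or replicate 1 of the cocaine-treated mutants (adjusted p = 0.0514). Its other probe set differed by 0.18 without a call. The cholinergic marker Lhx8, the 1 tested of its list, differed by 0.11 without a call. It was dim, at 4.53 to 5.67 in controls and 4.79 to 5.52 in mutants, so it could show little about cholinergic neurons.

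Foxp2, a forkhead factor linked to vocal and motor learning, was the factor that fell most. Its probe set 1422014_at read 5.43, 5.32 and 5.62 in saline-treated controls, 5.73, 5.64 and 5.45 in cocaine-treated controls, 5.32, 4.77 and 5.16 in saline-treated mutants and 5.29, 4.95 and 5.20 in cocaine-treated mutants. Mutant and control arrays met at 5.32, the highest mutant and the lowest control value. Foxp2 fell 1.34-fold (log2 change -0.42, SE 0.101, adjusted p = 0.0202). The call was lost without replicate 3 of the saline-treated controls (adjusted p = 0.0516), without replicate 1 of the cocaine-treated controls (adjusted p = 0.0530) and when dim probe sets were kept (adjusted p = 0.0740).

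Its relative Foxp1, an abundant marker of medium spiny neurons, had 7 tested probe sets with differences of -0.19 to 0.22 and 0 calls. The brightest of them read 8.47, 9.22 and 9.12 in saline-treated controls and 9.08, 9.04 and 9.08 in cocaine-treated controls. In mutants the same treatments gave 9.12, 9.07 and 9.35, and 9.09, 8.94 and 9.19, a difference of 0.12 (95% interval -0.12 to 0.37). Bcl11b, known as CTIP2 and required for the maturation of these neurons, read 9.36, 9.64 and 9.62, then 9.38, 9.60 and 9.54 in controls given saline and cocaine. Mutants read 9.86, 9.54 and 9.75, then 9.44, 9.64 and 9.67 (difference 0.13, 95% interval -0.04 to 0.29). Meis2, a homeobox factor of the striatal lineage, differed by 0.03 (95% interval -0.11 to 0.16), with 9.50 to 9.73 in controls and 9.53 to 9.80 in mutants. Control and mutant ranges overlapped for these 3 genes, and their intervals stay within a 1.5-fold change. Meis1 and Ebf1, with differences of -0.20 and -0.18, read close to 4 and were not called.

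**Figure D2:**
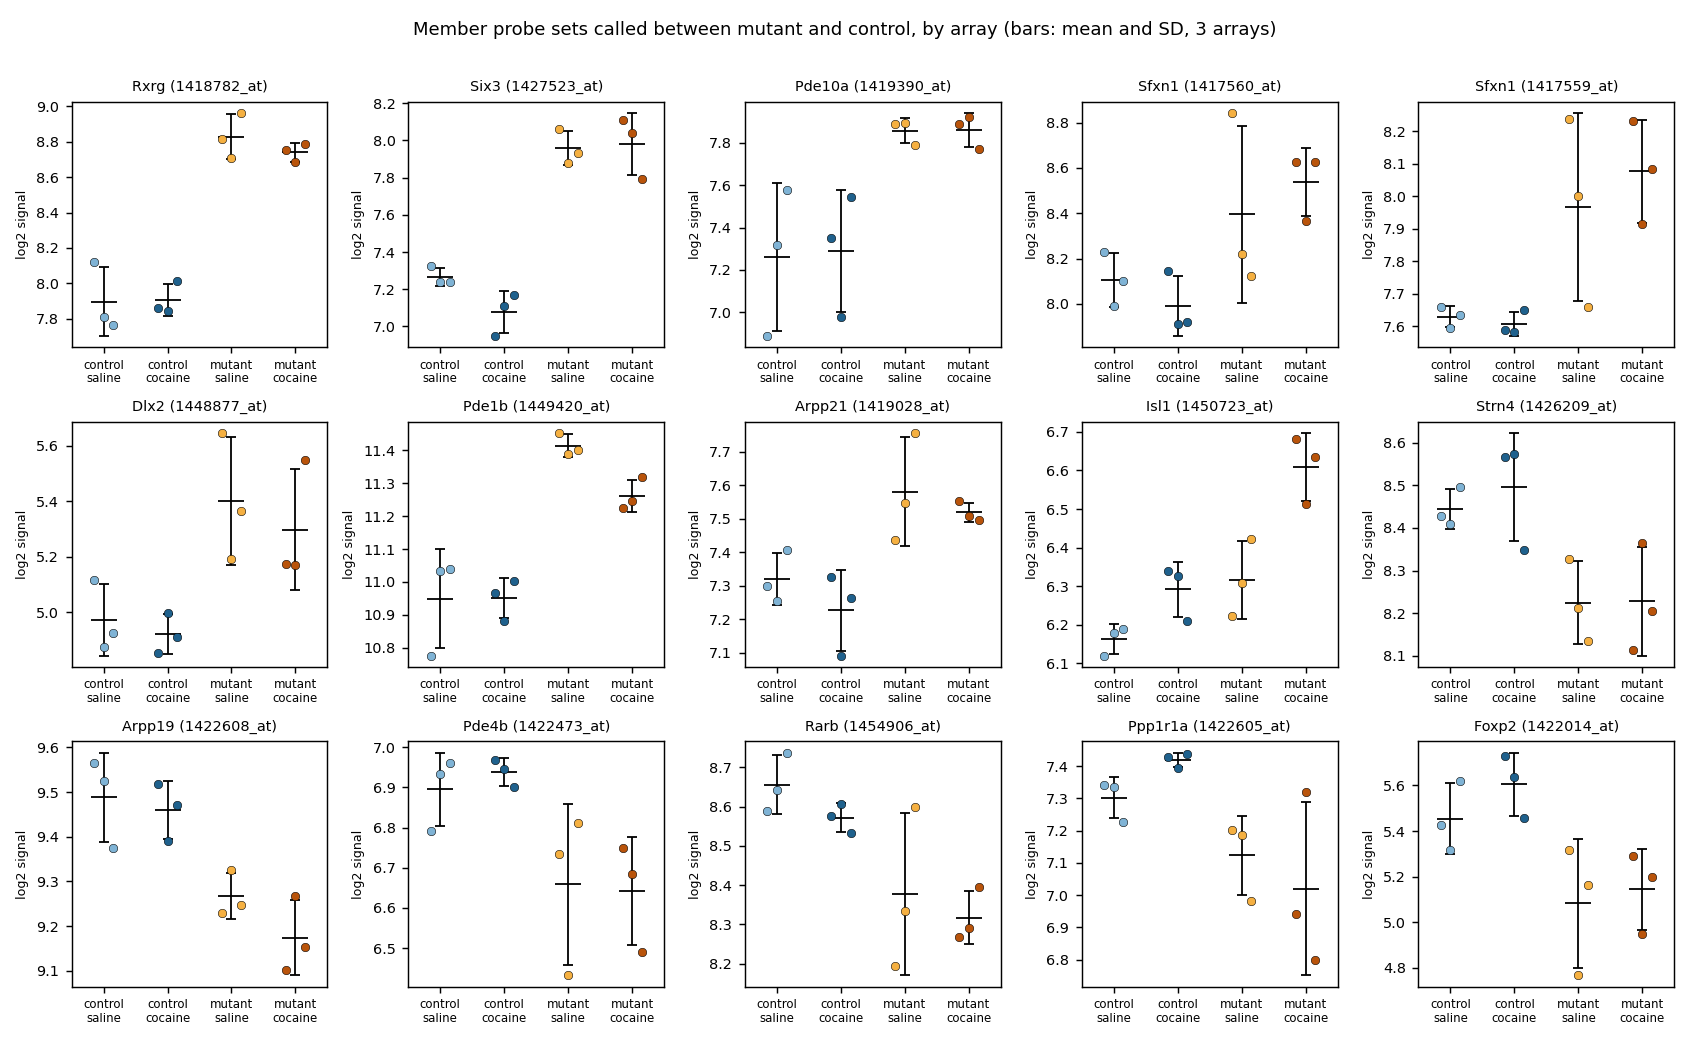
Log2 signal (y axis, own scale per panel) of each array for the 15 probe sets called between genotypes, in 4 groups (x axis) of 3 arrays; bars give the mean and SD. Mutant arrays lie above all control arrays for Rxrg, Six3, Dlx2, Pde1b, for 1 probe set each of Pde10a, Sfxn1 and Arpp21, and below them for 1 probe set of Arpp19.

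In the cAMP pathway, called phosphodiesterase probe sets went in both directions, and the lower call, of Pde4b, was unstable. Pde1b, a phosphodiesterase activated by calcium and calmodulin, read on probe set 1449420_at 10.78, 11.03 and 11.04 in saline-treated controls and 10.97, 10.88 and 11.00 in cocaine-treated controls. Saline-treated mutants were at 11.45, 11.39 and 11.40, and cocaine-treated mutants at 11.22, 11.25 and 11.32. Groups did not overlap, and Pde1b was 1.31-fold higher (log2 change 0.39, SE 0.0592, adjusted p = 0.00113), a call kept under each alternative run. By treatment the difference was 0.46 after saline (adjusted p = 0.0081) and 0.31 after cocaine (adjusted p = 0.0572), and the difference between these was not called (adjusted p = 1.0).

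Pde10a, a phosphodiesterase concentrated in medium spiny neurons, gave unequal answers by probe set. The brightest, 1419389_at, read 8.54, 8.86 and 8.89, then 8.81, 8.69 and 9.08 in controls given saline and cocaine. It read 9.37, 8.74 and 8.94, then 9.37, 9.00 and 9.17 in mutants, within or above the control range, and its difference of 0.29 was not called (95% interval 0.04 to 0.54, adjusted p = 0.150). The next, 1419390_at, read 6.89, 7.32 and 7.58, then 7.35, 6.98 and 7.55 in controls. Mutants read 7.89, 7.90 and 7.79, then 7.89, 7.92 and 7.77, a narrow band above all controls (log2 change 0.58, SE 0.115, adjusted p = 0.00637). The dimmest differed by -0.00073.

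Pde4b, which degrades cAMP alone, fell by 0.27 on the log2 scale on its dimmer probe set, 1422473_at (SE 0.0742, adjusted p = 0.0403). That probe set read 6.79, 6.93 and 6.96, then 6.97, 6.95 and 6.90 in controls, and 6.74, 6.43 and 6.81, then 6.75, 6.68 and 6.49 in mutants, with 1 mutant array inside the control range. The call was lost in 8 of 12 fits without 1 array, at adjusted p of 0.0592 to 0.0964. It was also lost when dim probe sets were kept and with the replicate number as a block. The brighter Pde4b probe set differed by -0.21 without a call (adjusted p = 0.158). Pde2a, stimulated by cyclic GMP, differed by 0.13 (95% interval -0.02 to 0.28). Pde7b, selective for cAMP, differed by 0.16 and 0.20 on its pair of probe sets, without a call. Adcy9 was the adenylyl cyclase of the list that could be read, and its 3 probe sets differed by -0.18 to -0.07 without a call.

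Ppp1r1b and Ppp1r1a, which encode inhibitors of protein phosphatase 1, lay on either side of the threshold. Ppp1r1b read on probe set 1451331_at 10.88, 11.03 and 10.95 in saline-treated controls and 10.88, 10.97 and 10.90 after cocaine, against 10.88, 10.73 and 10.60 and then 10.54, 10.81 and 10.69 in mutants. Apart from replicate 1 of the saline-treated mutants, mutant arrays lay below all controls. The difference was -0.23 (1.17-fold, SE 0.0664, 95% interval -0.37 to -0.08) with an adjusted p of 0.0511, so it did not pass. It passed in 6 of 19 alternatives, and adjusted p over the 19 ranged from 0.0103 to 0.113. Ppp1r1a encodes inhibitor-1, a related inhibitor of protein phosphatase 1 that PKA switches on. Its probe set 1422605_at read 7.34, 7.34 and 7.23, then 7.43, 7.39 and 7.44 in controls, and 7.20, 7.19 and 6.98, then 6.94, 7.32 and 6.80 in mutants. The log2 change was -0.29 (1.22-fold, SE 0.0822, adjusted p = 0.0439), a call lost in 11 of 12 fits without 1 array, at adjusted p of 0.0548 to 0.0973.

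Arpp19, whose product is a PKA substrate and, separately, can inhibit protein phosphatase 2A, had 3 probe sets, with differences of -0.25 to -0.16. That of middle brightness, 1422608_at, read 9.56, 9.52 and 9.37, then 9.52, 9.39 and 9.47 in controls, and 9.23, 9.33 and 9.25, then 9.10, 9.27 and 9.15 in mutants. It did not overlap between genotypes (-0.25 on the log2 scale, SE 0.0566, adjusted p = 0.0132) and was called under each alternative that kept this probe set. The others had adjusted p of 0.0780 and 0.0568. Strn4, a striatin that serves as a phosphatase 2A subunit, read on probe set 1426209_at 8.43, 8.41 and 8.50, then 8.57, 8.57 and 8.35 in controls, and 8.33, 8.21 and 8.14, then 8.11, 8.37 and 8.21 in mutants (a fall of 1.18-fold, SE 0.0652 on the log2 scale, adjusted p = 0.0338), a call lost in 7 of 12 fits without 1 array, at adjusted p of 0.0674 to 0.0811.

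Arpp21 encodes the regulator of calmodulin signalling, a PKA substrate abundant in the striatum. Its pair of bright probe sets differed by 0.06 and 0.05 without a call, with 11.05 to 11.30 in controls and 11.17 to 11.34 in mutants on the brightest. The dimmest rose 1.21-fold (log2 change 0.28, SE 0.0668, adjusted p = 0.0207), with 7.30, 7.25 and 7.41, then 7.33, 7.09 and 7.26 in controls and 7.44, 7.55 and 7.76, then 7.55, 7.51 and 7.50 in mutants. Its adjusted p was 0.0505 without replicate 2 of the cocaine-treated controls. The PKA subunits were not called: the catalytic subunit gene Prkacb differed by 0.04 and 0.14, and the regulatory subunit gene Prkar1b by -0.12 to -0.09 on 3 probe sets, the brightest of which is of a kind that can bind related transcripts.

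**Figure D3:**
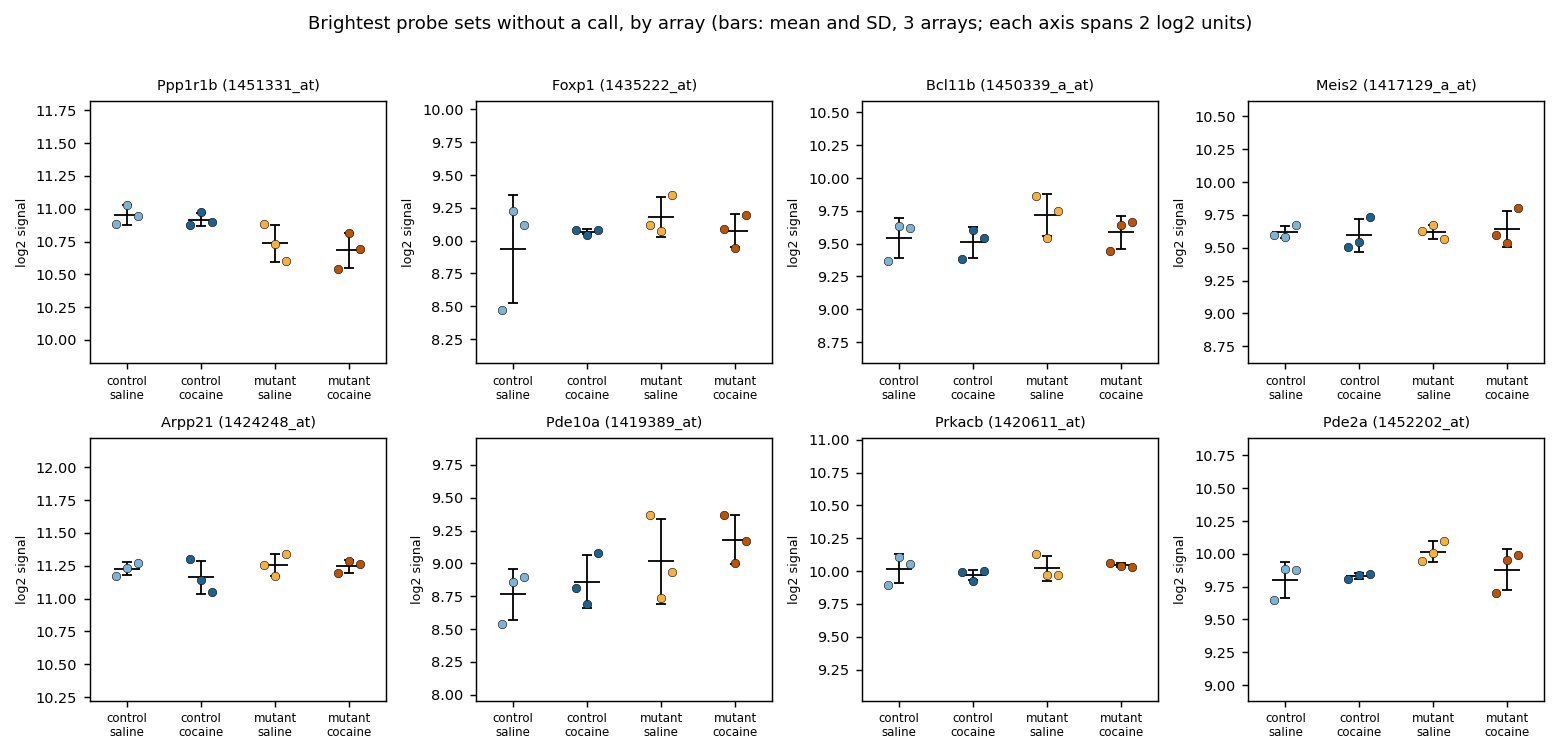
Log2 signal (y axis, 2 log2 units in each panel) by array for 8 genes, each through its brightest probe set. None of these probe sets was called between genotypes, while Pde10a and Arpp21 each had a dimmer probe set that was. Arrays are in 4 groups of 3 (x axis), and bars give the mean and SD. Ppp1r1b sits slightly lower in mutants (difference -0.23), and Meis2, Prkacb and Arpp21 at the same level within 0.06.

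Of the remaining genes, Sfxn1, a mitochondrial serine carrier enriched in striatum, was higher on both probe sets. The brighter, 1417560_at, read 8.23, 7.99 and 8.10, then 8.14, 7.91 and 7.92 in controls, and 8.84, 8.22 and 8.12, then 8.63, 8.36 and 8.62 in mutants. Mutant arrays varied more than controls, and 2 saline-treated ones lay within the control range (1.34-fold, log2 change 0.42, SE 0.113, adjusted p = 0.0357, lost in 6 of 12 fits without 1 array at adjusted p of 0.0678 to 0.0811). The dimmer, 1417559_at, read 7.58 to 7.66 in controls and 7.66 to 8.24 in mutants, just without overlap (1.32-fold, log2 change 0.40, SE 0.0882, adjusted p = 0.0119). Rasd2, the small G protein Rhes, differed by -0.17 and 0.05, and Rasgrp2, a calcium-regulated exchange factor for Rap, by -0.05 to 0.09; neither was called. Ptpn5, the striatum-enriched phosphatase STEP, differed by 0.04 to 0.17 on 3 probe sets without a call.

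The size of what could be missed was limited. For 51 of the 58 probe sets the 95% interval of the genotype difference lay within a 1.5-fold change in either direction, and estimates beyond 1.5-fold were those of Rxrg and Six3. Of 15 genes with several tested probe sets, 1 had all of them called, 5 had some and 9 had none, and the signs differed for Foxp1, Pde10a, Rasd2 and Rasgrp2. Where a gene's probe sets differ in a call, the cause was not tested.

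The genotype difference could be read a second time, since saline and cocaine arrays hold different samples. After saline, limma called 3 of the 58 probe sets (5.17%), Rxrg, Six3 and Pde1b, all higher, against 2.98% of all tested probe sets, or 1.34% counting higher ones alone. After cocaine it called 3 (5.17%), Rxrg, Six3 and Isl1, all higher, against 4.19%, or 2.27% for higher alone. This count was 9, with 7 higher and 2 lower, with array weights (6.38% of all tested probe sets called), with the trended robust prior (5.31%) and under the stricter filter (7.1%), where Arpp19 and Ppp1r1a were the lower ones. The call of Isl1 after cocaine (0.32, adjusted p = 0.0449) was lost in 8 of 12 fits without 1 array, at adjusted p of 0.0564 to 0.166, and when only the cocaine arrays were fitted (adjusted p = 0.0740). That of Pde1b after saline was lost when only the saline arrays were fitted (adjusted p = 0.0744). The count after cocaine was 5 without replicate 1 of the saline-treated controls or of the saline-treated mutants. That after saline was 5 without replicate 3 of the saline-treated mutants. Neither is given with a share over all tested probe sets. The differences after saline and after cocaine had the same sign for 48 of the 58 probe sets (82.8%), compared with 66.7% of all tested probe sets. Across the 58, Pearson's r was 0.83 and Spearman's rho 0.78, against 0.62 and 0.50 over all tested probe sets; probe sets of a gene are not independent, and these are descriptions. Groups did not overlap for 17 of 58 probe sets after saline, against 2099 of all 11102 tested (18.9%). After cocaine it was 25 of 58, against 2728 of 11102 (24.6%). Over both treatments the groups did not overlap for 8 of 58, of which 7 were higher. Among all 11102 it was 574 (5.17%), with 228 higher (2.05%). In each case the share of the 58 was the larger. The genes were chosen with earlier results of these data known, so these shares are descriptions and not a test.

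**Figure D4:**
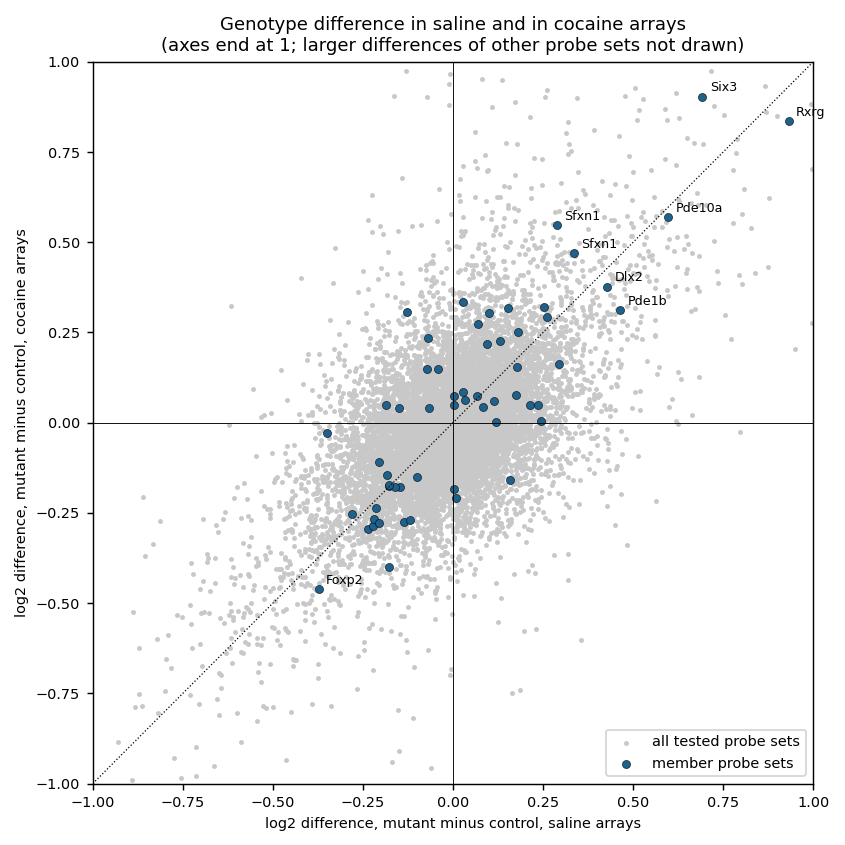
Log2 difference between mutant and control in saline arrays (x axis) and in cocaine arrays (y axis); blue points are the 58 probe sets of the listed genes and grey points all tested probe sets, with axes ending at 1. Rxrg, Six3 and Pde10a lie near the dotted line of equality at the upper right, and 48 of 58 points have the same sign on both axes.

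One hour after cocaine, Ptpn5 was the 1 gene of the list that limma called. Ptpn5 encodes a tyrosine phosphatase that acts on MAP kinases and glutamate receptors and whose activity PKA restrains. The probe set 1425131_at read 6.31, 6.59 and 6.54 in saline-treated controls and 7.31, 7.17 and 7.32 in cocaine-treated controls. Mutants had 6.62, 6.29 and 6.32 under saline and 7.27, 7.61 and 7.36 under cocaine. All 6 cocaine arrays lay above all 6 saline arrays, which held for 1.38% of all tested probe sets in either direction and 1.14% upward. The rise was 1.73-fold in controls (log2 change 0.79, SE 0.118, adjusted p = 0.00519), 2.01-fold in mutants (1.01, SE 0.118, adjusted p = 0.000327) and 1.86-fold over both genotypes (0.90, SE 0.0832, adjusted p = 3.37e-05), and was called under each alternative that kept this probe set. The response differed between genotypes by 0.22 (95% interval -0.14 to 0.58), without a call.

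The other Ptpn5 probe sets did not pass the test. The brightest read 9.23 to 9.38 in saline-treated and 9.35 to 9.55 in cocaine-treated controls, and 9.22 to 9.52 and 9.46 to 9.51 in mutants, a change of 0.13 over both genotypes (95% interval -0.00 to 0.27, adjusted p = 0.449). The third changed by 0.20 (95% interval -0.02 to 0.42, adjusted p = 0.500). The gap between probe sets was compared within arrays, a comparison chosen after the values were seen. The probe set 1425131_at was picked for the largest rise of the Ptpn5 probe sets, and the relabellings did not repeat that pick. The permutation p-values therefore describe the gap and give no independent support for it. The change of 1425131_at exceeded that of the brightest by 0.76 and that of the third by 0.70 on the log2 scale, each with an exact permutation p of 0.005 over 400 relabellings of treatment within genotype (two-sided, n = 6 per treatment, adjusted p over the 2 comparisons 0.005), the smallest p this design allows. The files do not say which part of the transcript each probe set reads.

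**Figure D5:**
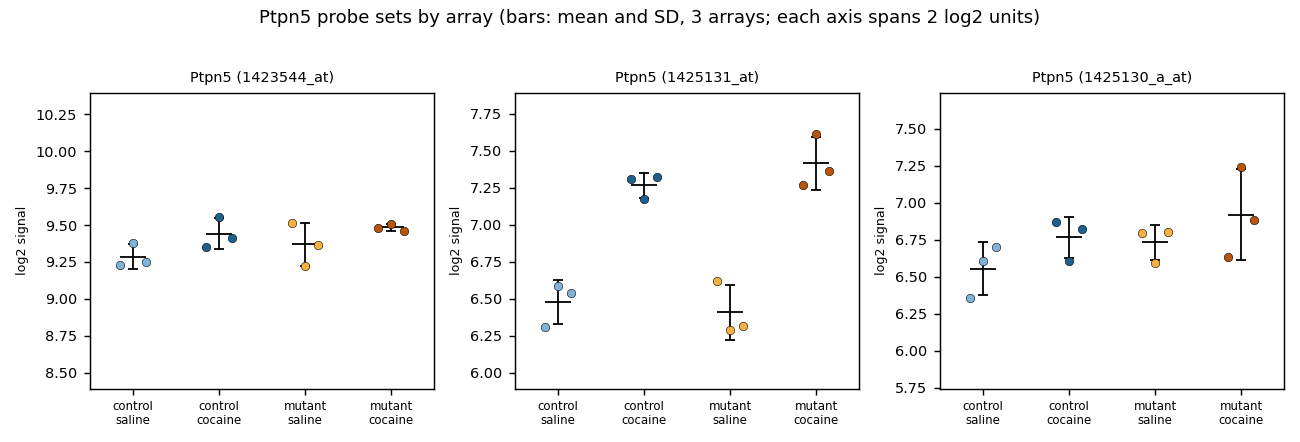
Log2 signal (y axis, 2 log2 units in each panel) of the 3 Ptpn5 probe sets by array in 4 groups (x axis) of 3 arrays; bars give the mean and SD. In the middle panel cocaine arrays lie at 7.17 to 7.61 and saline arrays at 6.29 to 6.62, whereas the outer panels show changes of 0.13 and 0.20.

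Over both genotypes limma called 1 of 58 probe sets for cocaine (1.72%), against 2.31% of all tested probe sets, 2.11% higher, and 3 passed an unadjusted p under 0.05, or 5.17% against 11.5%. In controls and in mutants the same probe set was the 1 call, against 0.45% and 1.92% of all, or 1.76% higher in mutants. For 57 of the 58 the 95% interval of the cocaine effect lay within a 1.5-fold change. Next in order of p was the brighter Isl1 probe set. It changed by 0.21 over both genotypes (95% interval 0.09 to 0.33, limma adjusted p = 0.0908), 0.13 in controls and 0.29 in mutants. The dimmer Isl1 probe set, 1422720_at, changed by 0.01 over both genotypes (limma adjusted p = 0.976), -0.14 in controls and 0.17 in mutants. The brighter one passed under the stricter filter, where 2 probe sets were called. No share over all tested probe sets is given for cocaine under that filter. Ppp1r1b changed by -0.05 (95% interval -0.19 to 0.10), Bcl11b by -0.08, Pde1b by -0.08, Rxrg by -0.04 and Six3 by -0.08, none called.

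For the difference between genotypes in the response to cocaine, limma called 0 of 58 probe sets, against 0.0721% of all tested, and 1 had an unadjusted p under 0.05 (1.72%, against 4.98% of all). That was Dlx5, whose response was larger in mutants by 0.30 (95% interval 0.01 to 0.60, adjusted p = 0.983). For 48 of the 58 the 95% interval of this difference lay within a 1.5-fold change. The interval ran from -0.31 to 0.27 for Ppp1r1b, from -0.41 to 0.22 for Rxrg and from -0.09 to 0.51 for Six3.

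Other genes of the cAMP pathway also moved in both directions. Of 55 listed, 34 were tested, and between genotypes over both treatments 4 were higher and 2 lower, beside 4.41% higher and 5.05% lower over all tested probe sets, with a median difference of 0.00. The list was counted by gene, each through its brightest probe set, while the shares count every tested probe set. Gng4, a G protein gamma subunit, differed by 0.58 (SE 0.140, adjusted p = 0.0197), from control values of 3.49 to 4.30 that lie near the floor. Adcy3, an adenylyl cyclase, went from 5.75 to 6.06 in controls to 6.28 to 6.59 in mutants (0.51, SE 0.0740, adjusted p = 0.000794), and the striatin gene Strn from 8.71 to 9.09 to 9.18 to 9.53 (0.46, SE 0.0770, adjusted p = 0.00236). Strn and Strn4, of the same family, were thus called in opposite directions, though the Strn4 call was lost in 7 of 12 fits without 1 array. Ppp1r2, which encodes inhibitor-2 of protein phosphatase 1, fell from 10.25 to 10.57 in controls to 9.74 to 9.90 in mutants. Its log2 change was -0.57 (SE 0.0602, limma adjusted p = 6.59e-05). Ppp1r1a was also called lower, but that call was lost in 11 of 12 fits without 1 array. With cocaine over both genotypes 0 of the 34 were called by limma and 2 passed an unadjusted p under 0.05, beside 2.31% and 11.5% of all tested probe sets.

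Of 35 further genes typical of striatal projection neurons, 25 were tested, and 5 were higher and 5 lower in mutants over both treatments, beside the same 4.41% and 5.05%, with a median difference of 0.02. This list, too, was counted by gene and the shares by probe set. Both lists were chosen with earlier results of these data known, so their counts are descriptions. Higher were Rgs14, a G protein regulator (0.66, SE 0.0673), Cnr1, the cannabinoid receptor gene (0.63, SE 0.0862), and Gad2, a GABA synthesis enzyme gene (0.60, SE 0.123). Crym, a thyroid hormone binding protein gene, was lower (-0.65, SE 0.0807, adjusted p = 0.000244). Control levels of Cnr1 were 3.93 to 4.51, near the floor. With cocaine over both genotypes 0 of the 25 were called by limma and 1 passed an unadjusted p under 0.05, again beside 2.31% and 11.5%.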

How the data were processed

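Each deposited value is the log2 signal of a probe set on an array. Per the submitters' processing notes, the authors ran GCRMA in R 2.4.1, a method that subtracts background predicted from probe sequence, equalises the arrays and summarises probes. No source gives the log base, which was taken from the range (1.26 to 13.1). GCRMA compresses dim values, so folds at levels near 4 are uncertain, and a shift common to all genes is no longer visible. The number of arrays limits the precision.

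The platform annotation gave 1 symbol for 20393 of the 22690 probe sets, several for 691 and none for 1606; 64 control probe sets were left out. The Entrez identifiers of all 32 listed genes on the array gave the same symbols in a RefSeq table of GRCm38.p6.

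All 12 arrays entered 1 limma fit (3.58.1, R 4.3.3) with 4 group means and Benjamini-Hochberg adjustment over the 11102 tested probe sets; adjusted p and SE are limma's. A call is a two-sided adjusted p under 0.05. A gene's brightest probe set leads, and the others are given. Values of every array are printed for Srf, core genes and called genes; outside the list, up to 4 called genes of each list are named. The members and lists were chosen with earlier results of these data known. The fit was tested on simulated data. Alternatives were filters on dim probe sets, quantile normalisation, median centring, array weights, a trended robust prior, the replicate number as a block, only the arrays compared, leaving out each array and, chosen after seeing the data, 1 probe set per gene.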

Additional observations from a re-analysis of the deposited data

How the results depend on the processing

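Rxrg, Six3, Pde1b, the called Pde10a and Arpp19 probe sets and the dimmer Sfxn1 probe set kept their calls over both treatments under the 19 alternatives that kept all probe sets of a gene, as did Ptpn5 1425131_at for cocaine over both genotypes. With 1 probe set per gene, those that are not the brightest drop out. Over both treatments, the count of called probe sets between genotypes ranged from 9 to 16 without 1 array and was 8 when dim probe sets were kept. After saline it ranged from 3 to 5 and after cocaine from 2 to 5 without 1 array. After cocaine it was 9 with array weights, 9 with the trended robust prior and 9 with the stricter filter, where Arpp19, Pde10a, Pde1b, Ppp1r1a and Sfxn1 were added. For cocaine over both genotypes it was 2 with the stricter filter, with Isl1 added. With 1 probe set per gene, the brightest, the counts for cocaine were 0 over both genotypes, 0 in controls and 0 in mutants, since the Ptpn5 probe set that rose is not the brightest. The genotype difference of Ptpn5 1425131_at, 0.04 and not called, turned sign to -0.000146 with array weights and ranged from -0.0147 to 0.0750 without 1 array. Counts given without a share over all tested probe sets cannot be set against one. Fits without 1 array have fewer samples, and the cause of the other shifts was not tested.

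The replicate numbers do not pair the samples: deviations of same-numbered arrays correlated at -0.14 to 0.12, above 0.1 for 1 of 18 pairs, and 2 of 12 arrays correlated best with their own number. With the replicate number as a block, 13 probe sets were called between genotypes over both treatments and 3 after saline. After cocaine, 3 were called (without Isl1, limma adjusted p = 0.0890, and with Sfxn1). Each cocaine comparison had 1 call. No share over all tested probe sets is given for this fit, so these counts cannot be set against one.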
